A study of Homo sapiens with 2 samples.

Results

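Peaks of RUNX2 and MTA1 were examined at 9 genes of antigen presentation: HLA-B, HLA-C, HLA-E, B2M, TAP1, PSMB8, PSMB9, NLRC5 and CIITA. The genes were taken as a named list, out of 20037 protein-coding genes, and a peak was counted for a gene when it lay inside it or within 10 kb of either end. The series holds 2 CUT&Tag libraries from untreated MDA-MB-231 cells (a widely used triple-negative breast cancer cell line), 1 made with an antibody against the transcription factor RUNX2 and 1 with an antibody against MTA1, a subunit of the NuRD deacetylase complex. In CUT&Tag a transposase is brought by the antibody to the bound protein and tags the DNA around it, and the study used these libraries to map where both proteins sit. The labels and the study's methods name different antibody suppliers, so the product behind each list is uncertain. Each library was represented by its own list of called peaks, 61700 for RUNX2 and 42683 for MTA1 on chromosomes 1 to 22, X and Y. With 1 library per antibody and no control library analysed here, none of the values is replicated and the lists could not be tested against each other. The number of reads behind the lists is unknown. The scale of the score of each peak was not given, so a score is stated with its rank, the percent of peaks of the same list that scored lower.

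Class I molecules show peptides from inside the cell to cytotoxic T cells. They consist of a heavy chain (HLA-B, HLA-C or HLA-E) and the shared light chain B2M. PSMB8 and PSMB9 are catalytic subunits of the immunoproteasome, which cuts proteins into peptides, and TAP1 is one chain of the transporter that carries the peptides into the endoplasmic reticulum. NLRC5 and CIITA are related coactivators without DNA-binding domains of their own, NLRC5 known mainly for class I genes and CIITA for class II genes, and interferon gamma is known to raise the whole set. RUNX2 is best known for directing bone formation, and NuRD removes acetyl groups from histones and moves nucleosomes.

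A RUNX2 peak was present at 8 of the 9 genes and an MTA1 peak at all 9. The background was high: 79.2% of all protein-coding genes had a RUNX2 peak by the same rule and 75.0% had an MTA1 peak. Overlapping peaks of both lists, sharing at least 1 bp, were found at 6 of the 9 genes, beside 65.0% of all protein-coding genes. The 9 genes lay in 7 separate places, because PSMB8, TAP1 and PSMB9 are neighbours on chromosome 6 and shared 4 RUNX2 and 5 MTA1 peaks. In all, 23 RUNX2 and 20 MTA1 peaks were counted. The combined windows of the genes held 66.1 RUNX2 peaks per Mb and 57.5 MTA1 peaks per Mb, beside 29.2 and 21.3 in the windows of all protein-coding genes. The stretch of chromosome 6 from HLA-F to HLA-DPB1, which contains 6 of the 9 genes, held 52.6 and 46.9 per Mb. Apart from NLRC5 and CIITA the genes span 3305 to 8496 bp, so most of each window lies outside the gene. Some counted peaks were nearest to other genes. The densities are not read as an excess at the 9 genes.

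The genes differed in which protein was found where. MTA1 peaks sat directly on the starts of HLA-C, HLA-E, B2M, PSMB8, TAP1 and PSMB9, and ranked from 57.8% at HLA-C and 64.8% at TAP1 to 93.2% at PSMB9. RUNX2 peaks at the same starts ranked from 17.1% to 51.0%, and HLA-C and HLA-E had none there. The regulators NLRC5 and CIITA had no MTA1 peak within 1 kb of either end, and their highest-ranked peaks of both lists lay more than 1 kb from either end. No start positions were at hand for CIITA, so whether an MTA1 peak lay on one of its starts could not be told.

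**Figure D1:**
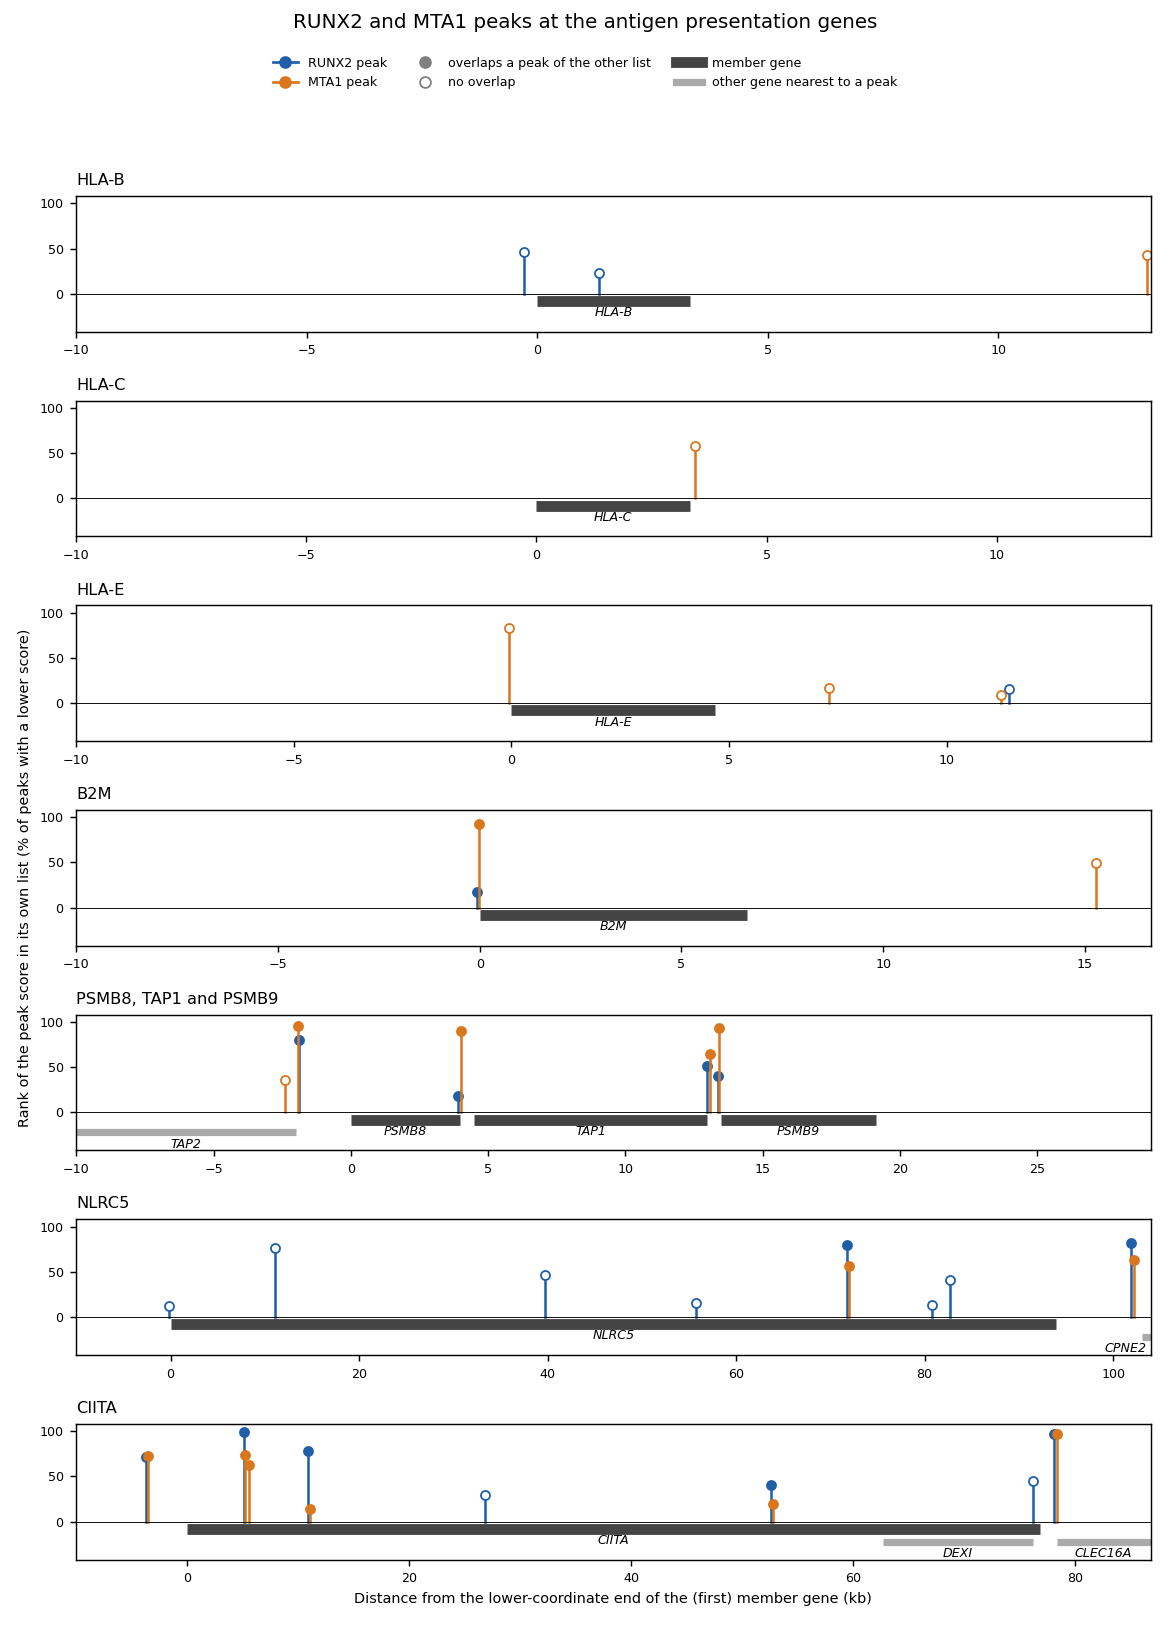
RUNX2 (blue) and MTA1 (orange) peaks in the window of each gene, with the distance from the lower-coordinate end of the gene in kb on the horizontal axis and the rank of the score in its own list on the vertical axis. Filled points overlap a peak of the other list. Lines of a pair are drawn slightly apart. The highest orange points are at the starts of CLEC16A (96.9%, CIITA panel) and TAP2 (95.5%), and those on the starts of HLA-E, B2M, PSMB8 and PSMB9 rank from 83.1% to 93.2%, while the blue points beside them at B2M and PSMB8 are at ranks of 17.1% and 18.6%, and NLRC5 carries 8 blue and 2 orange points.

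The reference sequence of the promoter was at hand for 6 of the 9 genes (RefSeq, build GRCh38.p14, 250 bases before to 50 bases after an annotated start). It is shown here because peaks of 5 of these genes cover part of it, and HLA-B is shown beside HLA-C for comparison. HLA-E, NLRC5 and CIITA had no entry in the table. Each sequence is written 5′ to 3′ on the strand of the gene. Capitals mark the bases that lay under a RUNX2 and an MTA1 peak together in B2M, PSMB8, TAP1 and PSMB9. In HLA-C they mark the bases under its MTA1 peak, and HLA-B has none because no peak reached its promoter.
B2M (chr15:44711267-44711566, + strand): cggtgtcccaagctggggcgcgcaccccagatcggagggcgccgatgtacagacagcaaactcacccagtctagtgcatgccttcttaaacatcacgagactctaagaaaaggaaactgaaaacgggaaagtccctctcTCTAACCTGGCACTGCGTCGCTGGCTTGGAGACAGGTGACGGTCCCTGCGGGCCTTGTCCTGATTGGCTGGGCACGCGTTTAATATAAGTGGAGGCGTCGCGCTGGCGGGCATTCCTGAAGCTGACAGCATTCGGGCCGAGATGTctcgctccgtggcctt
PSMB8 (chr6:32844630-32844929, - strand): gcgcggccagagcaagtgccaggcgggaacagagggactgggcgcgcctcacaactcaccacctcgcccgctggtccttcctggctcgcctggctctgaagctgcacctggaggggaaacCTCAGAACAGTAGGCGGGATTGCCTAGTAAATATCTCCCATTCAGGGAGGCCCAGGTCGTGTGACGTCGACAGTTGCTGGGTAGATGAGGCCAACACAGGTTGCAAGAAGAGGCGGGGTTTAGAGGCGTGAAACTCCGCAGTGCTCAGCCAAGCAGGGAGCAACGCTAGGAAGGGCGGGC
TAP1 (chr6:32853655-32853954, - strand): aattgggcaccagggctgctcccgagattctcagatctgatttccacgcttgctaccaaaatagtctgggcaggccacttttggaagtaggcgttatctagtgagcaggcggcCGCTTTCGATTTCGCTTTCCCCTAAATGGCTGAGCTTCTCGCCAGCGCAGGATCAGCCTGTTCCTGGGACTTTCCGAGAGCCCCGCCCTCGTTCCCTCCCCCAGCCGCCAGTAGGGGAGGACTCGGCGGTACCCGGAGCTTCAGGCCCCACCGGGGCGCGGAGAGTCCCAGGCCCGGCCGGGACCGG
PSMB9 (chr6:32853942-32854241, + strand): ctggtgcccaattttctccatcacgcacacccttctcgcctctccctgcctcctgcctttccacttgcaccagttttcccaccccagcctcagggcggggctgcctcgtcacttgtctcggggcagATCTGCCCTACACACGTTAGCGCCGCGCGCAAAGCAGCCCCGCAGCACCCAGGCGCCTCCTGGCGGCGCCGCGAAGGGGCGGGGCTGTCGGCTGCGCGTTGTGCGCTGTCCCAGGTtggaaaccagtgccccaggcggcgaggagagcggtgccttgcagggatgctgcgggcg
HLA-C (chr6:31272043-31272342, - strand): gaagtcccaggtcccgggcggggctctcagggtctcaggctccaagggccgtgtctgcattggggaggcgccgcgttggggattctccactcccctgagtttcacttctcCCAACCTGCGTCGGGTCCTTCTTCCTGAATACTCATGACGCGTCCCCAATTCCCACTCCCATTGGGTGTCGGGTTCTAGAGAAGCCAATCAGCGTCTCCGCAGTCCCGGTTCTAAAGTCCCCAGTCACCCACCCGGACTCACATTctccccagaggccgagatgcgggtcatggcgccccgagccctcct
HLA-B (chr6:31357130-31357429, - strand): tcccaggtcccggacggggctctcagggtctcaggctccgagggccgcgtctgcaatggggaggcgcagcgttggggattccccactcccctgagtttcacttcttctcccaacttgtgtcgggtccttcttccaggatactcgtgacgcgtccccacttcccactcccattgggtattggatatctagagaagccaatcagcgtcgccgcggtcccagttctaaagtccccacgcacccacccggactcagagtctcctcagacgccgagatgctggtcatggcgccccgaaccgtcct

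Of the bases shown, 145 in B2M, 180 in PSMB8, 187 in TAP1 and 116 in PSMB9 were covered by both lists. In HLA-C, 145 bases were covered by MTA1 alone.

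B2M, the light chain that every class I molecule needs, had the widest gap between the lists. Its MTA1 peak (chromosome 15, 44711292 to 44711641) scored 24.6, above 92.1% of the MTA1 list, and was centred 51 bp before the start of the gene. The RUNX2 peak at 44711406 to 44711550 lay wholly inside it, with a score of 4.52 that was higher than 17.1% of RUNX2 peaks. The MTA1 peak also overlapped the neighbouring gene PATL2, so it cannot be assigned to B2M alone. A further MTA1 peak, at 44726686 to 44726816 with a score of 7.49 (rank 49.1%), lay 8.61 kb beyond the other end of B2M and was nearest to the start of TRIM69.

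Among the 9 genes PSMB8 had the most peaks of each list per length, with 1.67 RUNX2 and 2.09 MTA1 peaks per 10 kb of its window. Only 1 peak of each list touched PSMB8 itself. The others of its window lay at the starts of its neighbours TAP1 and PSMB9 and at or in TAP2. PSMB8, for the subunit that gives the immunoproteasome its chymotrypsin-like activity, had an MTA1 peak across its start at chromosome 6, 32844467 to 32844918, with a score of 21.6 (rank 89.5%). The RUNX2 peak there, at 32844506 to 32844809, shared all of its 304 bp with it but scored 4.54 (rank 18.6%). The same peaks overlapped PSMB8-AS1, the antisense transcript of the locus. The table gives PSMB8 a second start, 632 bp inside the gene, whose promoter window no peak reached.

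TAP1 and PSMB9 are transcribed away from each other from starts 488 bp apart. Each start had its own pair of overlapping peaks. At the TAP1 start the RUNX2 peak (32853613 to 32853878, score 6.79, rank 51.0%) and the MTA1 peak (32853639 to 32853841, score 10.0, rank 64.8%) had centres 5 bp apart. At the PSMB9 start the MTA1 peak was stronger (32853966 to 32854220, score 26.1, rank 93.2%), and the RUNX2 peak inside it (32854068 to 32854183) scored 5.46 (rank 40.6%). The higher MTA1 rank thus lay on the PSMB9 side. No peak of either list was called inside the rest of TAP1 or PSMB9.

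The highest-ranked peaks within 10 kb of PSMB8 and TAP1 belonged by distance to another gene. They lay at the start of TAP2, which codes for the other chain of the peptide transporter. The MTA1 peak at 32838584 to 32838940 covered the TAP2 start with a score of 30.5 (rank 95.5%), and the RUNX2 peak at 32838802 to 32838921 scored 14.3 (rank 79.5%) with its edge 63 bp from that start. A narrow MTA1 peak at 32838229 to 32838344 (score 6.05, rank 36.2%) stood inside TAP2 without a RUNX2 partner.

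The heavy chain genes HLA-B, HLA-C and HLA-E together had 3 RUNX2 and 5 MTA1 peaks, and 0 of these 3 genes had an overlapping pair. HLA-E, a heavy chain of low variability that is recognised by receptors on natural killer cells, had the strongest of them. This MTA1 peak covered the lower-coordinate end of the gene, from which HLA-E is known to be transcribed (30489238 to 30489601, score 16.8, rank 83.1%). Beyond the other end stood 2 weak MTA1 peaks, at 30496716 to 30496831 (score 4.94, rank 16.7%) and at 30500636 to 30500832 (score 4.16, rank 8.70%). The only RUNX2 peak of HLA-E, at 30500858 to 30501098 (score 4.42, rank 15.3%), began just past the last of these and shared no base with it.

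HLA-C had an MTA1 peak and no RUNX2 peak. The MTA1 peak, at 31272088 to 31272232, covered the start with a score of 8.76, higher than 57.8% of the list. HLA-B, although its promoter resembles that of HLA-C, had no peak of either list within 1 kb of its start. Its RUNX2 peaks lay at 31353558 to 31353668, just outside the far end of the gene (score 6.25, rank 46.3%), and at 31355177 to 31355312 within the gene, where it overlapped the microRNA gene MIR6891 (score 4.84, rank 22.9%). The MTA1 peak of its window, at 31366904 to 31367226 (score 6.78, rank 42.5%), was 9.89 kb from the start and overlapped the pseudogene DHFRP2.

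The promoters of HLA-B and HLA-C were identical at 88.5% of aligned positions, with a longest identical run of 25 bases. The other pairs among the 6 promoters had between 47.7% and 53.4%. How reads that match several HLA genes were placed was not given in the sources used here. Whether this similarity affected the peaks of HLA-B and HLA-C was not tested.

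NLRC5 had many more RUNX2 than MTA1 peaks. Its window of 114 kb held 8 RUNX2 and 2 MTA1 peaks, and 98.0% of protein-coding genes had a smaller excess of RUNX2 over MTA1 peaks. RUNX2 peaks below the middle of their list, ranked 12.4%, 13.7%, 15.3%, 40.6% and 46.3%, make up most of this excess. The other RUNX2 peaks of the window ranked 76.6%, 79.2% and 81.5%, and the MTA1 peaks 56.6% and 63.4%. Over all protein-coding genes 42.2% had more RUNX2 than MTA1 peaks and 18.0% had more MTA1 than RUNX2 peaks, while among the 9 genes these were 3 and 5. The MTA1 excess of TAP1 and that of PSMB8 rested on the same unpaired peak inside TAP2. At B2M it rested on the peak nearest to TRIM69. The long window of NLRC5 enters its counts: per 10 kb it had 0.702 RUNX2 peaks and 0.175 MTA1 peaks, and the medians over all protein-coding genes were 0.357 and 0.276. The peak at the lower-coordinate end of NLRC5, where its transcription is known to begin, was a RUNX2 peak of the narrowest width in the list (chromosome 16, 56989533 to 56989631, 99 bp) with a score of 3.81, higher than 12.4% of the list.

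Inside NLRC5 the RUNX2 peaks of higher rank were those at 57000662 to 57000908 (score 12.9, rank 76.6%), which had no MTA1 partner, and at 57061340 to 57061514 (score 14.1, rank 79.2%). The latter lay within an MTA1 peak at 57061232 to 57061559 (score 8.52, rank 56.6%). The remaining 4 RUNX2 peaks inside the gene scored from 4.32 to 6.25 (ranks 13.7% to 46.3%) and stood alone. The other overlapping pair of the window was 8.08 kb beyond the gene and nearest to the start of CPNE2. It had scores of 15.5 for RUNX2 (rank 81.5%) and 9.74 for MTA1 (rank 63.4%).

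CIITA, the master coactivator of class II genes, held the strongest RUNX2 peak of the whole set. This peak, at chromosome 16, 10871157 to 10871745, was 589 bp wide with a score of 62.3, number 340 from the top of 61700 RUNX2 peaks and higher than 99.4% of them. Its centre lay 5.25 kb inside the gene from the lower-coordinate end. Under it were 2 separate MTA1 peaks of middle rank, at 10871178 to 10871339 (score 12.3, rank 73.1%) and 10871481 to 10871783 (score 9.65, rank 62.9%). CIITA is known to use several alternative promoters, but their positions were not in the table used here, so the peak could not be placed against them.

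A second pair inside CIITA, 10.975 kb from the same end, also ranked higher for RUNX2 (10877051 to 10877311, score 13.3, rank 77.6%) than for MTA1 (10877002 to 10877347, score 4.70, rank 13.5%). A pair 3.58 kb outside the lower-coordinate end had nearly equal ranks, 72.0% for RUNX2 (10862556 to 10862697) and 72.3% for MTA1 (10862505 to 10862688). The strong pair beyond the upper end, at 10944310 to 10944593 for RUNX2 (score 37.2, rank 96.4%) and 10944289 to 10944614 for MTA1 (score 34.8, rank 96.9%), lay on the start of CLEC16A. The RUNX2 peak at 10942471 to 10942596 (score 6.02, rank 44.8%) was 3 bp from the start of DEXI, whose start lies within the annotated span of CIITA. A pair of low rank, 41.0% for RUNX2 and 19.2% for MTA1, and a lone RUNX2 peak of the narrowest width (rank 29.3%) were also called inside CIITA.

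**Figure D2:**
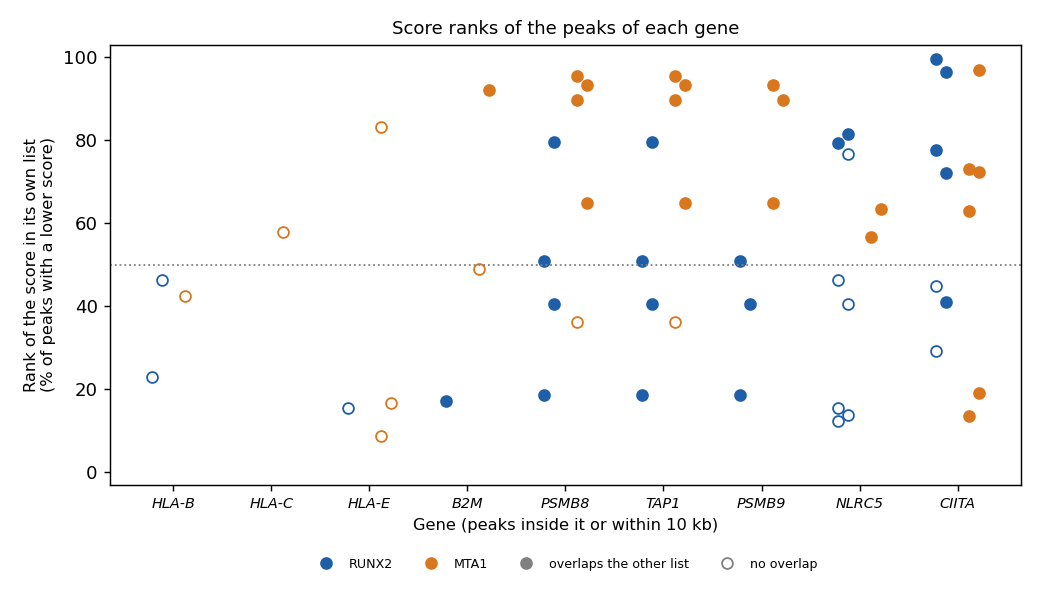
Rank of every peak in the window of each gene (percent of peaks in the same list with a lower score), for RUNX2 (blue) and MTA1 (orange). Filled points overlap a peak of the other list, the dotted line marks the middle of a list, and peaks shared by PSMB8, TAP1 and PSMB9 are drawn at each gene. The highest blue point is at CIITA (99.4%), and at B2M and PSMB8 the orange point on the start is far above its blue partner.

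At the annotated starts, a RUNX2 peak lay within 1 kb at 6 of the 9 genes and an MTA1 peak at 6 of the 9. Over all protein-coding genes these shares were 49.8% and 51.2%. For HLA-E, NLRC5 and CIITA, as for every gene without a start in the table, either end was used, and the RUNX2 peak so counted for CIITA was the one at DEXI. Overlapping peaks at a start were present at 4 of the 9 genes (B2M, PSMB8, TAP1 and PSMB9), beside 42.3% of all protein-coding genes. With 9 genes and these backgrounds, no excess is read from the counts.

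Among the 8480 protein-coding genes with an overlapping pair at a start, the best RUNX2 peak had a median rank of 75.7% and the best MTA1 peak a median rank of 81.3%. The median of the difference, MTA1 minus RUNX2, was 4.24 percentage points, and MTA1 ranked higher at 63.3% of these genes. At B2M the difference was 75.0 points, larger than at 99.8% of these genes. PSMB8 had a difference of 71.0 points, larger than at 99.6%. The starts of TAP1 and PSMB9 are within 1 kb of each other, so by this rule both genes took the RUNX2 peak of the TAP1 start and the MTA1 peak of the PSMB9 start, which do not overlap, with a difference of 42.3 points (larger than at 96.1%). Their own overlapping pairs differed by 13.8 points at TAP1 and 52.7 points at PSMB9. The difference compares ranks in lists of unequal length, each from 1 library.

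Set among genes with a peak at the start, the MTA1 peaks of B2M, PSMB8 and PSMB9 were higher than those of 77.4%, 72.1% and 80.0% of genes, and that of HLA-E was higher than 60.9%. The peak of the PSMB9 start was also the best within 1 kb of TAP1, so TAP1 has no place of its own in this order. HLA-C was lower in this order, at 30.6%. The RUNX2 peaks were in the lower part of the same order, at 3.88% for NLRC5, 6.07% for B2M and 6.77% for PSMB8. TAP1 was at 25.9%, and its peak was also the best within 1 kb of PSMB9. The 19.7% counted for CIITA came from the peak at the DEXI start and is not read as a start of CIITA.

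**Figure D3:**
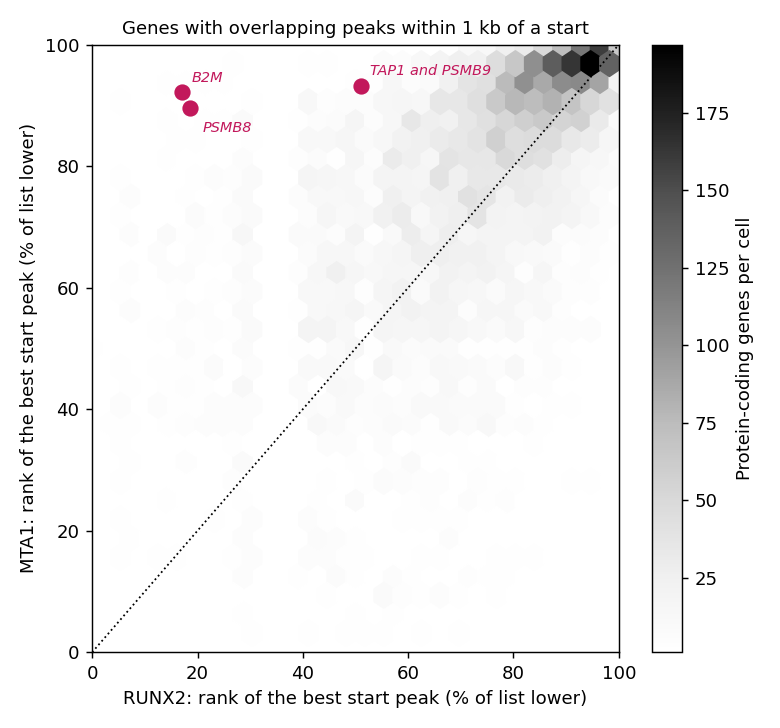
Rank of the best RUNX2 peak (horizontal axis) and the best MTA1 peak (vertical axis) within 1 kb of a start for the 8480 protein-coding genes with an overlapping pair there, in grey by number of genes. B2M (17.1% and 92.1%), PSMB8 (18.6% and 89.5%) and the shared point of TAP1 and PSMB9 (51.0% and 93.2%) lie above the dotted line of equal ranks. The shared point joins the RUNX2 peak of the TAP1 start to the MTA1 peak of the PSMB9 start.

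Overlap of the lists in the windows was ordinary. Of the 23 RUNX2 peaks, 12 overlapped an MTA1 peak (52.2%, exact 95% binomial interval 30.6% to 73.2%), and the share over the windows of all protein-coding genes was 49.3%. Among the 20 MTA1 peaks 13 had a RUNX2 partner (65.0%, 40.8% to 84.6%), beside 67.1%. The intervals cover counting error over peaks only. For MTA1 the overlap was uneven among the genes: all 8 MTA1 peaks at NLRC5 and CIITA overlapped a RUNX2 peak, and none of the 5 at the heavy chains did. Of these 8 peaks, 2 lay under a single RUNX2 peak, and others were nearest to the starts of CLEC16A, CPNE2 and DEXI. In the other direction, 7 of the 15 RUNX2 peaks at NLRC5 and CIITA overlapped an MTA1 peak, beside the 49.3% of all windows. Centres of paired peaks lay from 0 to 193 bp apart with a median of 31 bp, and 7 of the 12 paired RUNX2 peaks lay wholly inside the MTA1 peak.

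In the ranks of all peaks counted, 9 of the 23 RUNX2 peaks were in the upper part of their list, above its middle (39.1%), and 13 of the 20 MTA1 peaks (65.0%). The windows of all protein-coding genes had 52.1% and 52.2%. Among the 10% of peaks with the highest scores were 2 of the 23 RUNX2 peaks (8.70%), those at CIITA and CLEC16A. For MTA1 these were 4 of the 20 peaks (20%), those at B2M, PSMB9, TAP2 and CLEC16A. Over the windows of all protein-coding genes the shares were 10.5% and 11.4%. By distance, 5 of the RUNX2 and 6 of the MTA1 peaks were nearest to the start of a protein-coding gene outside the list.

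The promoter sequences were searched on both strands for the letters of factors tied to these genes. RUNX proteins bind a core of TGTGGT or TGCGGT, and 0 of the 6 genes with a promoter sequence had either in it. Of 34943 promoter windows of the same length, 13.1% held the former and 7.27% the latter. The result says only that these letters are not within the 300 bases. GAAANNGAAA, the core of the element bound by interferon-activated factors, was found at 3 of the 6 genes, while 3.57% of all promoter windows held it. At TAP1 it occurred in overlapping copies from 134 to 119 bases before the start, under both its peaks. At B2M overlapping copies lay from 144 to 129 bases before the start, under the MTA1 peak and outside the RUNX2 peak. At PSMB8 it was at the inner start, away from the peaks.

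The CCAAT box, bound by NF-Y in class I and class II promoters, was found at 5 of the 6 genes, and 34.6% of all promoter windows held it. PSMB8 was the exception. The only box of TAP1 and the only box of PSMB9 are the same bases, counted for both genes because their windows overlap. No peak covered them. A site for NF-kappa-B was matched at 4 genes (HLA-B, HLA-C, TAP1 and B2M), beside 11.3% of all windows. In B2M the site lay 125 to 116 bases before the start, next to the GAAANNGAAA copies. PSMB8 and TAP1 have 2 windows each. At the 6 genes no match of one motif overlapped that of another. A match is a sequence and not evidence of a bound factor.

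GC content was from 55.7% to 68.3% over the 8 windows of the 6 genes, with a median of 58.7% over all windows. PSMB9 had the most CpG dinucleotides, 26, more than 70.0% of windows, and the inner start of TAP1 had the fewest, 11.

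A longer list of 46 genes of the pathway, which includes the 9, placed these results among their partners. A RUNX2 peak was present at 33 of the 46 (71.7%) and an MTA1 peak at 33 (71.7%), and 28 had an overlapping pair (60.9%), beside 79.2%, 75.0% and 65.0% of all protein-coding genes. All 7 peptide-loading genes had an overlapping pair, beside the same 65.0%, and their highest peaks were at CANX for RUNX2 (rank 98.5%) and near TAPBP for MTA1 (rank 99.6%). CANX is a chaperone of newly made heavy chains and TAPBP joins them to the transporter. In these group counts neighbouring genes can share a pair, as TAP1 and TAP2 do at the TAP2 start. Of the 7 peptide-making genes 6 had a pair. The highest RUNX2 peak was that of ERAP1, a trimming peptidase (score 38.8, rank 96.8%), and the highest MTA1 peak was the one at the TAP2 start in the window of PSMB8. Of the 12 regulators 11 had a pair, with the highest MTA1 peak at NFYA, a subunit of NF-Y (score 59.4, rank 99.7%), and the highest RUNX2 peak at CIITA.

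Class II genes had fewer. Of 13 class II genes and their chaperones, 4 had a RUNX2 peak (HLA-DMA, HLA-DOB, CD74 and CTSS), 3 had an MTA1 peak (HLA-DMA, CD74 and IFI30) and 2 had a pair. This was 30.8% and 23.1% of the group, below the 79.2% and 75.0% of all protein-coding genes. Most of the group are HLA genes on chromosome 6. Whether the placement of reads among HLA genes affected these counts was not tested. CD74, the invariant chain that guards the class II groove, had the highest peaks of the group, with a RUNX2 score of 14.9 (rank 80.6%) and an MTA1 score of 18.5 (rank 85.7%).

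**Figure D4:**
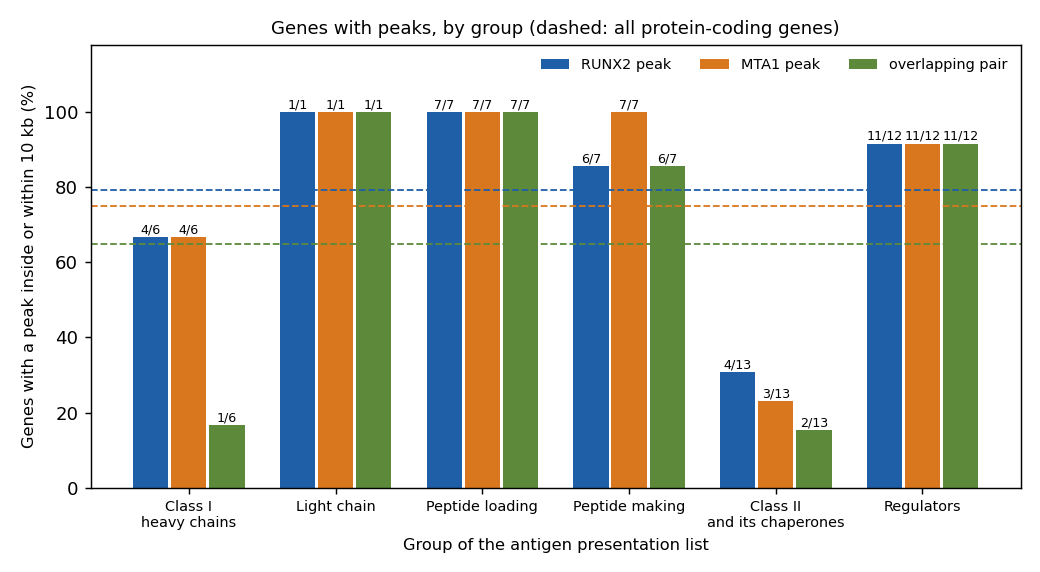
Percent of genes in each group of the antigen presentation list with a RUNX2 peak (blue), an MTA1 peak (orange) or an overlapping pair (green) inside or within 10 kb, with the numbers of genes above the bars and the shares of all protein-coding genes as dashed lines. The class II group lies below the dashed lines in all 3 measures, and the peptide-loading group is at 7 of 7 in each. Neighbouring genes can share peaks.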

How the data were processed

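CUT&Tag peaks were analysed from 2 libraries of MDA-MB-231 cells, 1 for RUNX2 and 1 for MTA1. The authors deposited a list per library with chromosome, start, end, name and a score, whose scale and lower limit were not stated. The submitters' processing notes name CASAVA 1.4, Bowtie 0.12.8, MACS and MACS2, without their roles, and build hg19. The labels also describe ligation of adaptors to precipitated DNA, which is unusual for CUT&Tag.

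The build was examined on the peaks, since the genes came from RefSeq GRCh38.p14. At the listed positions a GRCh38 start was within 1 kb of 18.2% of the peaks for RUNX2 and 25.5% for MTA1, against at most 3.37% and 3.63% after moves of over 5 kb, up to 100 kb. Between HLA-F and HLA-DPB1 the shares were 39.5% and 44.9%, against at most 19.2% and 19.0%. The best move was 500 bp or less in every region examined. Positions were therefore read as GRCh38, and the planned comparison with chromosome lengths was not run because no lengths were at hand. Chromosome 8 has no starts in the table.

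Peaks were printed 1-based, and 61717 and 42698 listed peaks were reduced to the nuclear chromosomes. Overlap meant at least 1 bp. Starts were known for 15843 genes and 6 members. Shares carry Clopper-Pearson intervals. The interval steps were tested on simulated data. Python 3.11.15, numpy 2.4.6, pandas 2.3.3, scipy 1.17.1, biopython 1.88 (global alignment of promoters) and matplotlib 3.10.9 were used.

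Results for some genes and motifs of the longer list are not reported here. The genes, the longer list and the motifs were chosen with earlier results of these data known. Named besides the 9 genes are those with the highest peak of each list in their group of the longer list, and genes nearer to a counted peak. The class II genes named in small counts, the genes PATL2, PSMB8-AS1, MIR6891 and DHFRP2, the comparison of ranks at starts, the densities and the promoter identities were chosen after the values were seen. Alternatives were windows of 3 and 50 kb, the upper part of each list from its median score, the 10000 peaks of highest score, peaks over the narrowest width, and other rules for overlap and starts.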

Additional observations from a re-analysis of the deposited data

How the results depend on the processing

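No paired analysis was possible because each antibody has 1 library. Of 38 alternative values, 25 stayed within 1.5 times the reported count. A window of 50 kb gave 54 RUNX2 and 40 MTA1 peaks and 26 overlapping RUNX2 peaks, more by construction. With the upper part of each list from its median score, 5 genes had a RUNX2 peak, 9 RUNX2 and 13 MTA1 peaks remained, 7 of the RUNX2 peaks overlapped, and 2 genes had a RUNX2 peak at the start, while 6 still had an MTA1 peak there. With the 10000 highest-scoring peaks, 1 gene had a RUNX2 peak and 1 a pair, and 2 RUNX2 peaks (1 of them overlapping) and 6 MTA1 peaks were left, at 6 genes for MTA1. Fewer peaks lower these counts by construction. The 10000 peaks are 16.2% of the RUNX2 list and a larger share of the shorter MTA1 list. Shares of all protein-coding genes under these cuts were not computed. The contrast between the lists is therefore not read as a trait of the 9 genes. A window of 3 kb, the narrowest peaks left out, an overlap of 50% of both peaks, centres within 200 bp and starts within 3 kb moved no count by over 1.5 times. The number of reads is unknown, and a site without a listed peak may hold a signal below the limit of its list.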
